A study of Mus musculus with 4 samples.

Results

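A set of 10 genes was followed whose products carry odorant receptors to the cell surface or that sense and relieve protein load in the endoplasmic reticulum (ER). They were chosen by name, without reference to a threshold, but with earlier results of these data known. The set comprised *Rtp1*, *Rtp2*, *Rtp4*, *Reep1*, *Reep6*, *Eif2ak3*, *Atf5*, *Atf4*, *Ddit3*, and *Hspa5*, which are 10 of the 24421 genes in the deposited table. RNA-seq was performed on sorted cells of the mouse main olfactory epithelium (MOE), the tissue in which olfactory sensory neurons (OSNs) each express 1 odorant receptor (OR) or trace amine-associated receptor (TAAR) gene. All 4 libraries came from transgenic mice, with 1 library for each group. Sorting of the TAAR enhancer 1-GFP line (the GFP line) gave GFP-positive and GFP-negative cells, and sorting of the TAAR enhancer 2-tdTomato line (the tdTomato line) gave tdTomato-positive and tdTomato-negative cells. Both transgenes place a TAAR enhancer and the minimal Hsp68 promoter before the reporter, were brought in by pronuclear injection, and were kept as 1 founder line each. The labels give adult C57BL/6 mice for all 4 libraries, whereas the study's reporting summary gives younger ages, at or before the third postnatal week, and a mixed strain background. No source says how many animals were pooled or that the 2 libraries of a line came from the same animals.

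Odorant receptors fold poorly outside OSNs, and RTP1 and RTP2 are the transmembrane chaperones that bring them to the plasma membrane. When a receptor is first made, it engages the ER kinase PERK, encoded by *Eif2ak3*, which phosphorylates the initiation factor eIF2α. General translation then drops, translation of ATF4 and ATF5 mRNA increases, and in OSNs ATF5 lets the cell mature and keep its receptor choice. Other branches of the unfolded protein response use IRE1 with XBP1, and ATF6, and raise ER chaperones such as HSPA5, also called BiP. ATF4, ATF5, and CHOP (encoded by *Ddit3*) are controlled at translation as well as at the mRNA level, and RNA-seq measures only the latter.

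The genes lie on 6 chromosomes in the GENCODE M21 annotation of GRCm38, and the 3 *Rtp* genes are on the same chromosome, with *Rtp1* at chr16:23429133-23433960, *Rtp4* at chr16:23520291-23614222, and *Rtp2* at chr16:23925548-23932394. *Reep1* is at chr6:71707561-71810710, *Eif2ak3* at chr6:70844515-70905245, *Reep6* at chr10:80329953-80336441, *Ddit3* at chr10:127290774-127296288, *Atf4* at chr15:80255184-80257541, and *Hspa5* at chr2:34771970-34777547. Promoters of 7 of the 10 genes, all but *Rtp1*, *Rtp4*, and *Reep6*, were found in RefSeq (GRCm38.p6), as windows from 250 bases before to 50 bases after the transcription start. Elements bound by the transcription factors of the unfolded protein response are known from the *Hspa5* promoter, so its upstream sequence is shown with the matched letters in capitals. The first stretch, chr2:34771840-34771969 on the plus strand, holds the UPR element TGACGTG, and the second, chr2:34772019-34772048, holds the ER stress response element, which is CCAAT and CCACG with any 9 bases between them.
Hspa5, far upstream: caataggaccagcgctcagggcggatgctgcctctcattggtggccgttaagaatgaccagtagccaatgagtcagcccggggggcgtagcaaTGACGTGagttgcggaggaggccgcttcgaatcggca
Hspa5, ER stress response element: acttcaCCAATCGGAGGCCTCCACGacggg
The upstream stretches of *Rtp2*, at chr16:23930795-23931044, and of the first *Atf5* start, at chr7:44816659-44816908, both on the minus strand, are given for comparison, as those of a receptor chaperone gene and of the gene of a transcription factor downstream of PERK, and they hold none of the motifs searched.
Rtp2: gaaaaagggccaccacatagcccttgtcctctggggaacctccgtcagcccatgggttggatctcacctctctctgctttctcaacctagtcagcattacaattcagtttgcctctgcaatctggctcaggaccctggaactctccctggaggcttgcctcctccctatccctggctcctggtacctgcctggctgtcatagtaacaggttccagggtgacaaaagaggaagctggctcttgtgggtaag
Atf5: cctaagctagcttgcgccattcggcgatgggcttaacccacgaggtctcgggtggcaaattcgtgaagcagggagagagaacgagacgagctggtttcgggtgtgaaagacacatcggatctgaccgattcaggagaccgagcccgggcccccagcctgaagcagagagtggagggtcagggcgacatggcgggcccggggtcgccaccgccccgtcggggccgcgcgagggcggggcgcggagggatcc

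Of all 32851 promoter windows in the RefSeq table, 0.119% held the ER stress response element and 2.01% held TGACGTG, counting both strands. In *Hspa5*, the first began 65 bases and the second 157 bases before the RefSeq start, and the first lies in the opening exon of the GENCODE model that reaches furthest upstream. The C/EBP-ATF composite site TGATGNAA was in 3.97% of windows, the cyclic AMP response element TGACGTCA, which shares its first letters with TGACGTG, in 1.79%, the interferon-stimulated response element GAAANNGAAA in 3.44%, and an Ebf-type site TCCCNNGGGA, added after the data were seen, in 0.904%. None of these 6 patterns occurred in the other 7 promoter windows of the listed genes, 2 of which belong to *Atf5*. These are matches of letters within short windows and say nothing about binding in these cells.

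The values are in TPM, a measure of transcript abundance, and are corrected for transcript length and scaled so that each library sums to 1000000, so levels can be set side by side between genes, but the number of reads behind them is unknown. Fold changes were calculated as log2 ratios of TPM + 1, a scale that understates differences of low genes, and with 1 library per group no test was made. The sorted populations differed in cell type markers. The 12 marker genes of mature OSNs were all lower in reporter-positive cells of both lines, and their summed level was 29478 TPM in GFP-negative, 3165 TPM in GFP-positive, 31890 TPM in tdTomato-negative, and 14460 in tdTomato-positive cells. All 8 Bowman gland and all 9 sustentacular markers were at least 2-fold higher in GFP-positive than in GFP-negative cells. The gland markers summed to 82692 against 2034 TPM and the sustentacular markers to 14586 against 998 TPM. In GFP-positive cells, *Bpifb9b* alone was at 55039 of the 82692 TPM. *Cbr2* and *Gpx6* were at 6411 and 5914 of the 14586 TPM. With tdTomato the members of these lists went both ways, since 5 gland markers were at least 2-fold higher and 3 lower, and 3 sustentacular markers were higher and 3 lower. Their sums with tdTomato rested on single genes, with *Bpifb3* at 2337 of 2657 TPM of gland markers in tdTomato-negative cells and *Cbr2* at 6327 of 6974 TPM of sustentacular markers in tdTomato-positive cells. Multiciliated cell markers (10 genes) summed to 10348 TPM in tdTomato-positive cells, and to between 1004 and 3301 TPM elsewhere, with *Ccdc153* listed at 0 in GFP-negative cells. The summed level of the 8 immature OSN markers was highest in GFP-negative cells (2207 TPM) and lowest in GFP-positive cells (424 TPM). That of the 5 horizontal basal cell markers was highest in GFP-positive cells (624 TPM) and lowest in tdTomato-positive cells (33.0 TPM). Single genes of both lists did not all follow these sums. The 6 microvillar and tuft cell markers summed to between 49.3 and 239 TPM, and *Chat* and *Avil* of this list were at 0 in tdTomato-positive cells. The 10 highest genes took 31.5% of the GFP-positive library and between 5.72% and 9.44% of the others. The median log2 fold change of all genes tested, those with at least 1 TPM in either library, was therefore read beside each result, and was -0.88 in the GFP line and -0.23 in the tdTomato line. Scaling by the median ratio shifted these medians by 0.81 and 0.15, and scaling the libraries to the same mean of the mature OSN markers shifted them by 2.79 and 0.95. In bulk samples such as these, fewer cells of a type and less RNA per cell cannot be told apart.

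The 10 genes spanned a wide range of abundance, and none was listed at 0 in any library. *Atf5* was the most abundant in both reporter-negative libraries, where it ranked 31st of all genes, and *Hspa5* was the most abundant in GFP-positive cells. In reporter-negative cells, *Rtp1*, *Rtp2*, *Hspa5*, and *Atf4* all lay between 444 and 802 TPM, while *Rtp4*, *Reep6*, and *Eif2ak3* stayed below 50 TPM. The plot of levels shows that *Hspa5* varied least across the 4 libraries in TPM as deposited. In it, 7 of the 10, all but *Rtp4*, *Reep6*, and *Hspa5*, had their lowest TPM in GFP-positive cells. The share of all genes lowest there was not calculated. Of all genes tested, 75.5% were lower in GFP-positive than in GFP-negative cells, and only 24.8% were lower in tdTomato-positive than in GFP-positive cells.

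**Figure D1:**
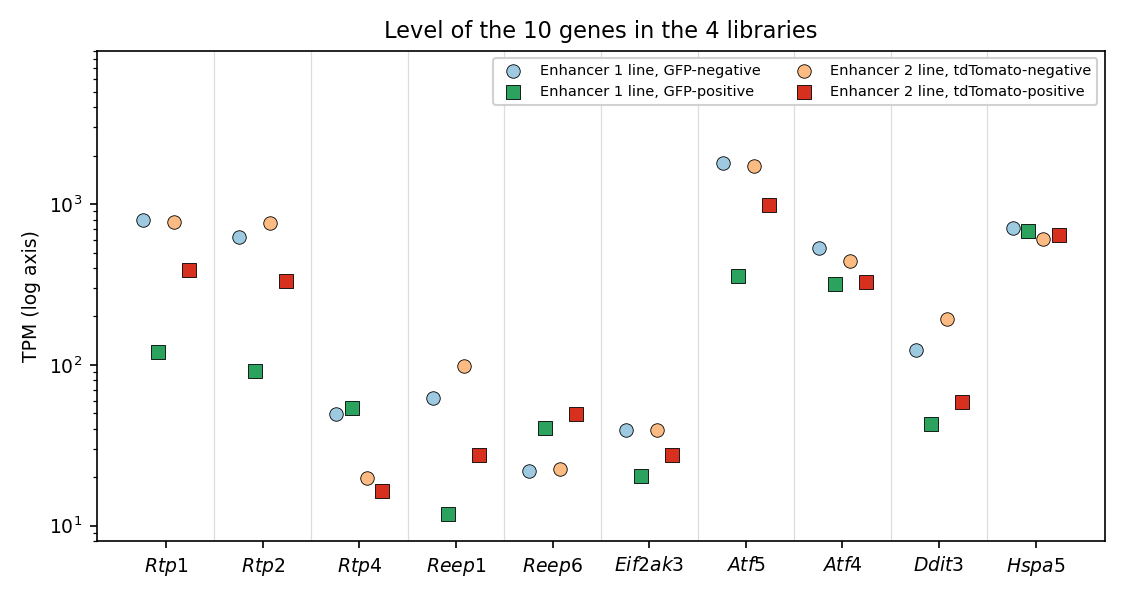
TPM of each of the 10 genes (log axis) in the 4 libraries, with circles for reporter-negative and squares for reporter-positive cells, and 1 library per group. *Hspa5* sits between 606 and 711 TPM in all 4 libraries, whereas *Rtp1* runs from 120.4 to 802 TPM.

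All 10 genes passed the minimum level in every comparison. In the GFP line, 5 of the 10 (*Rtp1*, *Rtp2*, *Reep1*, *Atf5*, and *Ddit3*) were at least 2-fold lower in GFP-positive cells, beside 45.0% of all genes tested, and none was at least 2-fold higher, beside 14.2%. In the tdTomato line, 3 (*Rtp2*, *Reep1*, and *Ddit3*) were lower, beside 23.2%, and 1 (*Reep6*) was higher, beside 17.2%. These shares of the 10 genes were close to those of all genes, and the median log2 fold change of the 10 was -1.21 beside -0.88 in the first line and -0.65 beside -0.23 in the second. Scaled to the mature OSN markers, none of the 10 was lower by 2-fold in either line. Under this scaling, 6 were at least 2-fold higher in the GFP line and 2 in the tdTomato line, where the medians of all genes tested were 1.92 and 0.71. No gene of the 10 differed by 2-fold in opposite directions in the 2 lines.

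**Figure D2:**
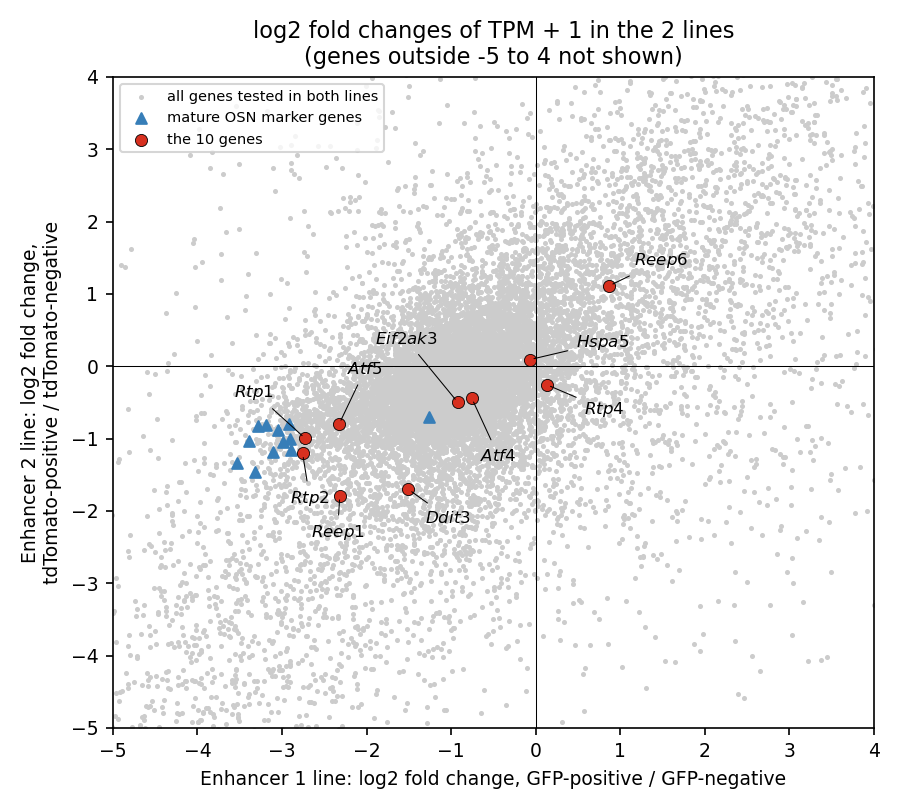
Log2 fold changes of TPM + 1 (reporter-positive over reporter-negative cells) in the GFP line (horizontal) and the tdTomato line (vertical), for 15033 genes tested in both lines (grey), 12 mature OSN markers (blue), and the 10 genes (red, labelled), with 1 library per group. *Rtp1* and *Rtp2* lie near the mature OSN markers, and on the horizontal axis above all of them but *Slc24a4* (-1.26). *Reep6* is the labelled gene in the upper right. Scaling to the mature OSN markers shifts the median of all genes tested by 2.79 on the horizontal and 0.95 on the vertical axis, and moves *Rtp1*, *Rtp2*, *Reep1*, *Atf5*, and *Ddit3* to positive values on the horizontal axis.

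*Rtp1* and *Rtp2*, the chaperones of odorant receptors, had nearly the same profile. *Rtp1* was at 802 TPM in GFP-negative, 120.4 TPM in GFP-positive, 778 TPM in tdTomato-negative, and 389 in tdTomato-positive cells. *Rtp2* was at 621, 91.1, 762, and 330.1 TPM in the same libraries. Both genes were thus lowest in GFP-positive cells and intermediate in tdTomato-positive cells. Log2 fold changes in the GFP line were -2.73 for *Rtp1* and -2.76 for *Rtp2*, which became 0.25 and 0.22 when libraries were scaled to the mature OSN markers. In the tdTomato line they were -0.999, just short of 2-fold, and -1.205, and under the same scaling they became 0.022 and -0.18. The ratio of *Rtp1* to *Rtp2* stayed between 1.02 and 1.32 in the 4 libraries.

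*Rtp4*, the interferon-inducible member of the family, did not share this profile. It was at 49.3 TPM in GFP-negative, 54.1 TPM in GFP-positive, 19.7 TPM in tdTomato-negative, and 16.3 in tdTomato-positive cells. The gene was higher in both libraries of the GFP line than in either library of the tdTomato line, by 2.50-fold between the negative and 3.31-fold between the positive populations. Within a line the difference was small as deposited, with log2 fold changes of 0.13 and -0.26. Scaling by the median ratio gave 1.001 for the first, and scaling to the mature OSN markers gave 3.07 and 0.69. *Rtp3*, the remaining *Rtp* gene, was listed at 0 in all 4 libraries. In the reference transcripts, 11.6% of the 50-base windows of *Rtp4* also occur in the overlapping gene model *Gm45338*, which is on the same strand and has no values of its own here, so reads of the 2 may have been shared.

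Other interferon-stimulated genes were compared between the lines because *Rtp4* belongs to them. Of the 15 genes on this list, which includes *Rtp4*, 8 were at least 2-fold lower and none at least 2-fold higher in tdTomato-negative than in GFP-negative cells (12.4% and 11.4% of all genes tested), and the list median was -1.23 on the log2 scale beside 0.052 for all genes tested. *Irf7*, a transcription factor of the interferon response, was at 152 TPM in GFP-negative, 78.3 TPM in GFP-positive, 47.1 TPM in tdTomato-negative, and 10.8 in tdTomato-positive cells. *Bst2*, which tethers budding virions, was at 147, 53.3, 56.6, and 10.03 TPM. Both were highest in GFP-negative and lowest in tdTomato-positive cells. *Usp18*, a protease that restrains interferon signaling, was at 35.5, 91.7, 5.22, and 85.3 TPM, and was higher in reporter-positive cells of both lines. *Ifit2*, which binds RNA, was at 31.4, 4.35, 25.3, and 16.3 TPM. The summed level of the list was 2.16-fold higher in GFP-negative than in tdTomato-negative cells. Beside this, the 7 immune cell markers summed to 5987 TPM in GFP-negative and 2662 TPM in tdTomato-negative cells, and 4 of the 7 were at least 2-fold lower in the latter. In reporter-positive cells of both lines, 6 of the 7 were at least 2-fold lower, for example *Ptprc* at 178 against 3.14 TPM with GFP and 194 against 1.42 TPM with tdTomato, and *Cd3e* was listed at 0 in GFP-positive cells. The other marker, *Lyz2*, was higher with both reporters and made up 2043 of the 2203 TPM and 1707 of the 1811 TPM of immune markers in GFP-positive and tdTomato-positive cells. The part of immune cells in the levels of *Rtp4* was not tested. Against reporter-negative cells of the same line, 6 list genes were at least 2-fold lower and 1 higher with GFP (45.0% and 14.2% of all genes tested), and 7 were lower and 1 higher with tdTomato (23.2% and 17.2%).

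**Figure D3:**
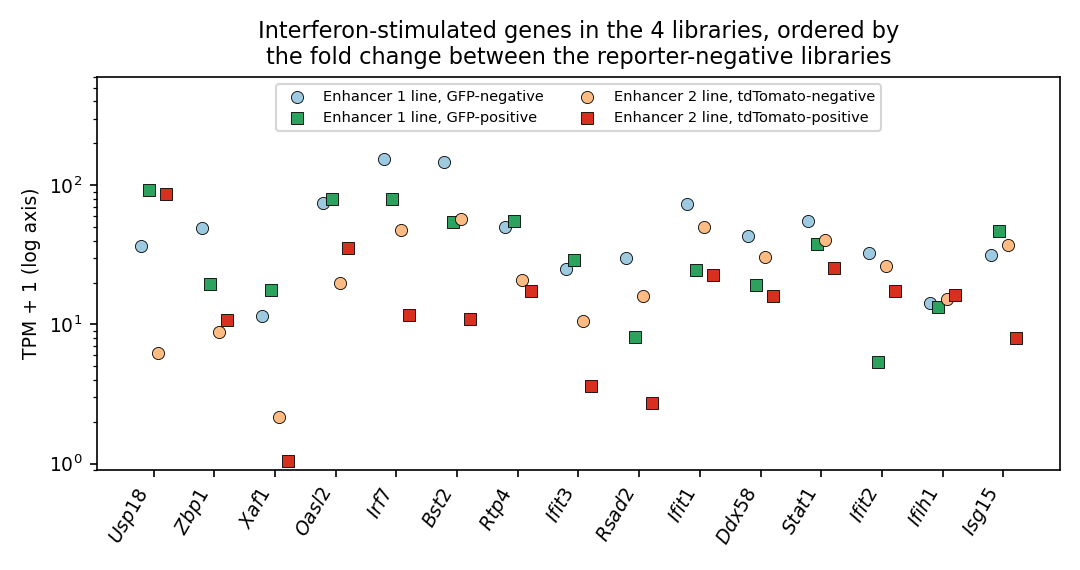
TPM of the 15 interferon-stimulated genes, *Rtp4* included, in the 4 libraries (TPM + 1 on a log axis, circles for reporter-negative and squares for reporter-positive cells, 1 library each), ordered by the log2 fold change between the reporter-negative libraries. Of the 15 genes, 13 are lower in tdTomato-negative than in GFP-negative cells, beside 46.4% of all genes tested.

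*Reep1* and *Reep6* encode ER proteins that shape membranes and were found to aid receptor delivery, and they differed between the sorted populations in opposite directions. *Reep1* was at 62.6 TPM in GFP-negative, 11.8 TPM in GFP-positive, 98.2 TPM in tdTomato-negative, and 27.7 in tdTomato-positive cells. Its levels in the 2 reporter-positive libraries were below those in both reporter-negative libraries. The log2 fold changes were -2.32 and -1.79, and scaling to the mature OSN markers gave 0.56 and -0.78. *Reep6* was at 21.8, 40.7, 22.3, and 49.4 TPM, so that both reporter-positive libraries lay above both reporter-negative ones. Its log2 fold changes were 0.87 and 1.11, and were positive under each of the 3 other scalings. The ratio of *Reep6* to *Reep1* was 0.348 and 0.228 in reporter-negative cells but 3.45 and 1.79 in GFP-positive and tdTomato-positive cells, respectively, a 15.2-fold range. Of the 6 *Reep* genes measured, 1 was at least 2-fold lower and none higher in the GFP line (45.0% and 14.2% of all genes tested). In the tdTomato line, 1 was lower and 3 were higher (23.2% and 17.2%). Of these 3, *Reep2* was listed at 0 in tdTomato-negative and at 1.66 TPM in tdTomato-positive cells, so its call depends on the pseudocount. *Reep5*, the most abundant *Reep* gene on average, had values near those of *Reep6* in direction, with 39.3, 74.6, 39.3, and 104.3 TPM.

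*Eif2ak3*, which encodes PERK, and *Atf5*, its translational target in OSNs, differed in size of effect. *Eif2ak3* was at 39.4 TPM in GFP-negative, 20.3 TPM in GFP-positive, 39.2 TPM in tdTomato-negative, and 27.4 in tdTomato-positive cells. The reporter-negative libraries were almost equal, and both reporter-positive libraries were lower. With log2 fold changes of -0.92 and -0.50, *Eif2ak3* was close to the median of all genes tested, from which it differed by -0.043 and -0.27, and it was higher in reporter-positive cells when scaled to the mature OSN markers (1.98 and 0.48). In the annotation, 5.71% of its 50-base windows are shared with the antisense gene model *Gm43292*. The other eIF2α kinases on the list were *Eif2ak1*, the heme-regulated kinase (54.8, 38.6, 51.1, and 52.1 TPM), *Eif2ak2*, the kinase that senses double-stranded RNA (21.6, 18.2, 15.0, and 12.05 TPM), and *Eif2ak4*. None of the 4 kinases differed by 2-fold in either line, beside 45.0% of all genes tested that were lower and 14.2% that were higher in the GFP line, and 23.2% and 17.2% in the tdTomato line.

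*Atf5* was at 1790.2 TPM in GFP-negative, 357 TPM in GFP-positive, 1717 TPM in tdTomato-negative, and 987 in tdTomato-positive cells. It was lowest in GFP-positive cells, 5.02-fold below GFP-negative cells, and tdTomato-positive cells were 1.74-fold below tdTomato-negative cells. The log2 fold changes of -2.32 and -0.80 became 0.66 and 0.22 after scaling to the mature OSN markers. The ratio of *Atf5* to *Rtp1* was between 2.21 and 2.96 in the 4 libraries. On the minus strand at chr7:44812256-44816658, *Atf5* overlaps *Nup62* and *Il4i1* on the other strand. *Il4i1* was listed at 0 in all libraries and *Nup62* at 20.8 to 65.3 TPM, and whether reads were counted by strand is not given in the sources used here.

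The partners of this feedback include *Adcy3*, the adenylyl cyclase of odor transduction whose appearance ends the feedback signal, *Kdm1a*, a histone demethylase, and the phosphatase subunits *Ppp1r15a* and *Ppp1r15b*, which reverse eIF2α phosphorylation. Of the 7 genes on the list, *Eif2ak3* and *Atf5* included, 4 were at least 2-fold lower in the GFP line, beside 45.0% of all genes tested, and none in the tdTomato line, beside 23.2%, with medians of -1.38 and -0.50 beside -0.88 and -0.23. *Adcy3* was at 872, 88.3, 1177, and 663 TPM in GFP-negative, GFP-positive, tdTomato-negative, and tdTomato-positive cells. *Ppp1r15a* was at 378, 145, 257, and 172 TPM. As deposited, all 7 genes were lower in reporter-positive cells of both lines. Lower values were also found for 75.5% of all genes tested in the GFP line and 59.97% in the tdTomato line. *Adcy3* is also 1 of the 12 mature OSN markers.

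*Atf4*, which drives amino acid and stress genes, differed less than *Atf5*. *Atf4* was at 535 TPM in GFP-negative, 316 TPM in GFP-positive, 444 TPM in tdTomato-negative, and 326 in tdTomato-positive cells. Its log2 fold changes were -0.75 and -0.44, and scaling by the median ratio gave 0.13 in the GFP line, and scaling to the mature OSN markers gave 2.23 and 0.58. There were 3.35 transcripts of *Atf5* for each of *Atf4* in GFP-negative cells and 3.87 in tdTomato-negative cells, compared with 1.13 in GFP-positive and 3.03 in tdTomato-positive cells.

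*Ddit3*, which encodes the stress factor CHOP, was lower with both reporters. It was at 123 TPM in GFP-negative, 42.7 TPM in GFP-positive, 194 TPM in tdTomato-negative, and 59.0 in tdTomato-positive cells. Both reporter-positive libraries were below both reporter-negative libraries, by 2.88-fold and 3.29-fold. The log2 fold changes were -1.51 in the GFP line and -1.70 in the tdTomato line. Median-ratio scaling gave -0.63, which is less than 2-fold, and -1.55. Scaling to the mature OSN markers gave 1.44 and -0.69. *Ddit3* and *Reep1* were the listed genes that stood furthest below the median of all genes in the tdTomato line, by -1.47 and -1.56. *Ddit3* overlaps *Mars* on the opposite strand, which was at 42.7 to 75.7 TPM.

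The 18 genes on the list of ATF4 and CHOP targets did not differ in 1 direction. With GFP, 5 were at least 2-fold lower and 5 at least 2-fold higher, beside 45.0% and 14.2% of all genes tested, and the list median was -0.63 beside -0.88. With tdTomato, 8 were lower and 2 higher, beside 23.2% and 17.2%, and the list median was -0.64 beside -0.23. *Nupr1*, a stress-induced chromatin protein, was at 36.02 TPM in GFP-negative, 764 TPM in GFP-positive, 111 TPM in tdTomato-negative, and 529 in tdTomato-positive cells, opposite to *Ddit3*. *Slc3a2*, the shared subunit of amino acid transporters, was at 232, 143, 176, and 130.3 TPM. *Chac1*, a glutathione-degrading enzyme, was low, at 2.999, 4.71, 10.2, and 0.188 TPM. Chosen after their values were seen, *Trib3*, a pseudokinase, and *Cebpg*, a bZIP factor, had ratios to *Ddit3* of 0.303 to 0.410 and of 1.16 to 1.57 in the 4 libraries.

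**Figure D4:**
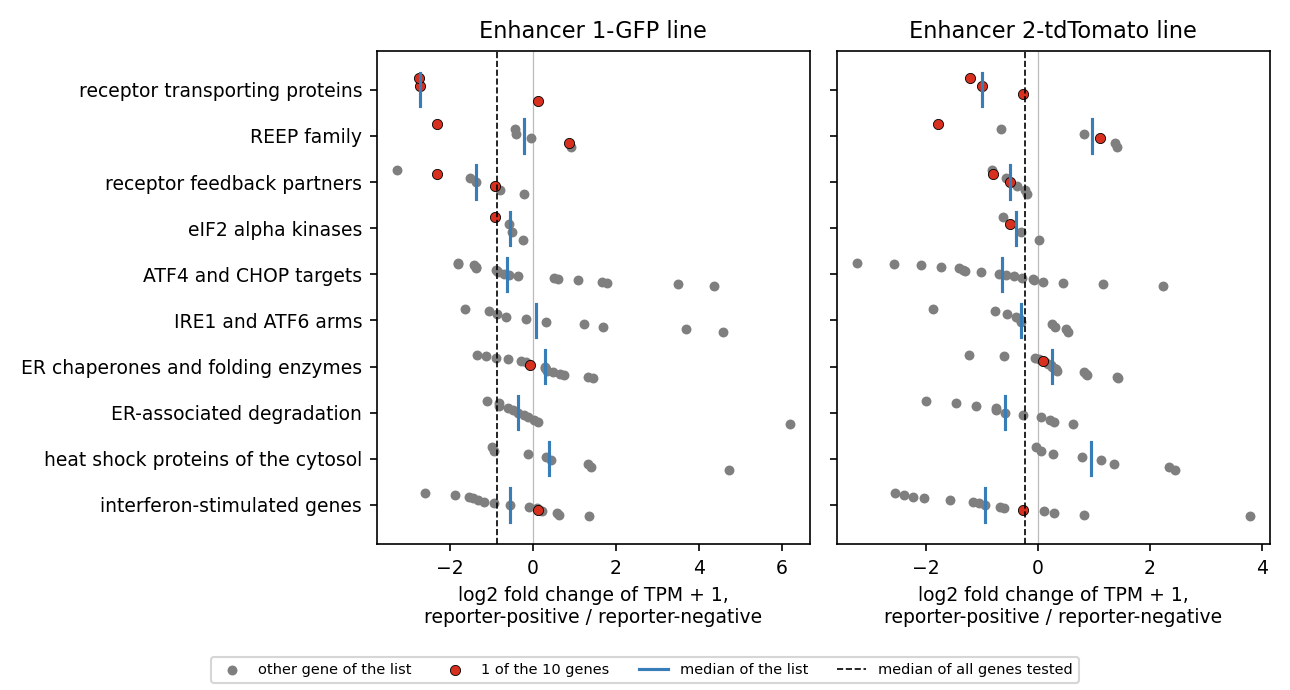
Log2 fold changes of TPM + 1 (reporter-positive over reporter-negative cells) of the genes on 10 pathway lists in each line, with 1 library per group and the 10 genes in red. Blue bars are list medians and the dashed line is the median of all genes tested, -0.88 in the GFP line and -0.23 in the tdTomato line. Scaling to the mature OSN markers shifts the dashed line by 2.79 in the left panel and by 0.95 in the right panel.

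*Hspa5*, the HSP70 of the ER and the gene with both elements in its promoter, was the most even of the 10 genes in TPM as deposited, whereas with median-ratio scaling its log2 fold changes were 0.82 and 0.25 in the 2 lines, and those of *Eif2ak3* were -0.066 and -0.35. It was at 711 TPM in GFP-negative, 679 TPM in GFP-positive, 606 TPM in tdTomato-negative, and 645 in tdTomato-positive cells. The 4 values lay within 1.17-fold, and the log2 fold changes were -0.067 and 0.091. Relative to all genes tested, *Hspa5* was 0.81 and 0.33 above the median, and scaling to the mature OSN markers gave 2.92 and 1.11. For each transcript of *Rtp1*, there were 0.886 of *Hspa5* in GFP-negative and 0.779 in tdTomato-negative cells, but 5.63 in GFP-positive and 1.66 in tdTomato-positive cells. For each transcript of *Ddit3* there were 5.78, 15.9, 3.12, and 10.9 of *Hspa5*.

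Most other ER chaperones and folding enzymes differed by less than 2-fold. Of the 17 on the list, 2 were at least 2-fold lower and 2 higher in the GFP line (45.0% and 14.2% of all genes tested), and 1 lower and 2 higher in the tdTomato line (23.2% and 17.2%), with medians of 0.28 and 0.25 beside -0.88 and -0.23. *Hsp90b1*, the HSP90 of the ER, was at 807 TPM in GFP-negative, 656 TPM in GFP-positive, 846 TPM in tdTomato-negative, and 1001 in tdTomato-positive cells. *Calr*, a lectin chaperone, was at 525, 639, 516, and 614 TPM. *Dnajc3*, a cochaperone of HSPA5, was at 32.9, 91.3, 53.0, and 144 TPM, and so was higher in both reporter-positive libraries. *Creld2* was at 79.1, 111, 69.3, and 189 TPM.

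Of 10 genes of the IRE1 and ATF6 branches, 2 were at least 2-fold lower and 4 higher in the GFP line (45.0% and 14.2% of all genes tested), and 1 was lower and none higher in the tdTomato line (23.2% and 17.2%). *Xbp1*, whose mRNA IRE1 splices and which secretory cells need, was at 88.1 TPM in GFP-negative, 284 TPM in GFP-positive, 132 TPM in tdTomato-negative, and 163 in tdTomato-positive cells. *Atf6b*, a relative of ATF6, was at 171, 54.2, 189, and 111 TPM, and *Mbtps1*, the protease that activates ATF6, was at 99.5, 46.8, 85.7, and 65.1 TPM. *Xbp1* was highest, and *Atf6b* and *Mbtps1* lowest, in the GFP-positive library that also held the most Bowman gland RNA, and the part of gland cells in these levels was not tested. *Creb3l4* was listed at 0 in GFP-negative and tdTomato-positive cells and at 22.8 and 2.68 TPM in GFP-positive and tdTomato-negative cells. Of 11 genes of ER-associated degradation, 1 was lower and 1 higher with GFP, and 3 were lower and none higher with tdTomato, beside the same shares of all genes. *Herpud1*, a scaffold of the degradation complex, was between 306 and 359 TPM in all 4 libraries. *Os9*, a lectin of that complex, was at 135, 115, 155, and 160.03 TPM, and *Vimp*, a selenoprotein of it, at 268, 176, 189, and 231 TPM. *Derl3* was listed at 0 in GFP-negative cells and was at 72.0, 16.7, and 3.45 TPM in the other libraries.

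Heat shock proteins of the cytosol were listed apart from those of the ER. Of 8 genes, 3 were at least 2-fold higher in the GFP line and 4 in the tdTomato line, beside 14.2% and 17.2% of all genes tested, and none was at least 2-fold lower, beside 45.0% and 23.2%. *Hspa8*, the constitutive HSP70, was at 2554, 1341, 2752, and 2691 TPM, and *Hsp90ab1*, the constitutive HSP90, at 2438, 1223, 2614, and 2732 TPM. *Hsp90aa1*, the inducible HSP90, was at 770.2, 713, 926, and 2368 TPM, and *Hspb1*, a small heat shock protein, at 6.94, 207, 46.4, and 257 TPM. As deposited, *Hspa8* (log2 difference 1.005), *Hsp90ab1* (1.16), and *Hsp90aa1* (1.73) were at least 2-fold higher in tdTomato-positive than in GFP-positive cells, as were 34.9% of all genes tested, and median-ratio scaling shifted the median of that comparison over all genes by -0.71 on the log2 scale. The 10 immediate early genes, which respond to dissociation, summed to between 2388 and 3232 TPM in the 4 libraries, with 4 of them at least 2-fold lower with tdTomato, and their part in heat shock gene levels was not tested. Over all 89 genes on the lists that are not among the 10, of which 88 passed the minimum of 1 TPM in either line, 18 were at least 2-fold lower and 16 higher in the GFP line, and 20 were lower and 11 higher in the tdTomato line, again beside 45.0% and 14.2%, and 23.2% and 17.2%. When libraries were scaled to the mature OSN markers, none of them was lower and 83 were higher in the first line, and 9 were lower and 40 higher in the second, so the directions given for list genes hold for the values as deposited.

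The mature OSN markers had log2 fold changes from -3.53 to -1.26 in the GFP line and from -1.46 to -0.70 in the tdTomato line. In the GFP line *Slc24a4* alone set the upper end, and the next marker, *Cnga2*, was at -2.89. To set the 10 genes against OSN genes of the same library, the log2 ratio of each to the mean of the 12 markers was calculated, and its difference between reporter-positive and reporter-negative cells is given. For *Rtp1* this difference was 0.26 and 0.024 in the 2 lines, for *Rtp2* it was 0.23 and -0.18, and for *Atf5* it was 0.66 and 0.22. The markers themselves were 7.92-fold lower with GFP and 2.03-fold lower with tdTomato. *Reep1* was 0.67 and -0.77, and *Ddit3* was 1.48 and -0.68, which are positive with GFP and negative with tdTomato. *Eif2ak3* (2.07 and 0.52), *Atf4* (2.23 and 0.58), *Hspa5* (2.92 and 1.11), *Rtp4* (3.12 and 0.77), and *Reep6* (3.86 and 2.13) were higher relative to the markers in both lines. For comparison, the median of all genes tested was 2.11 and 0.79.

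**Figure D5:**
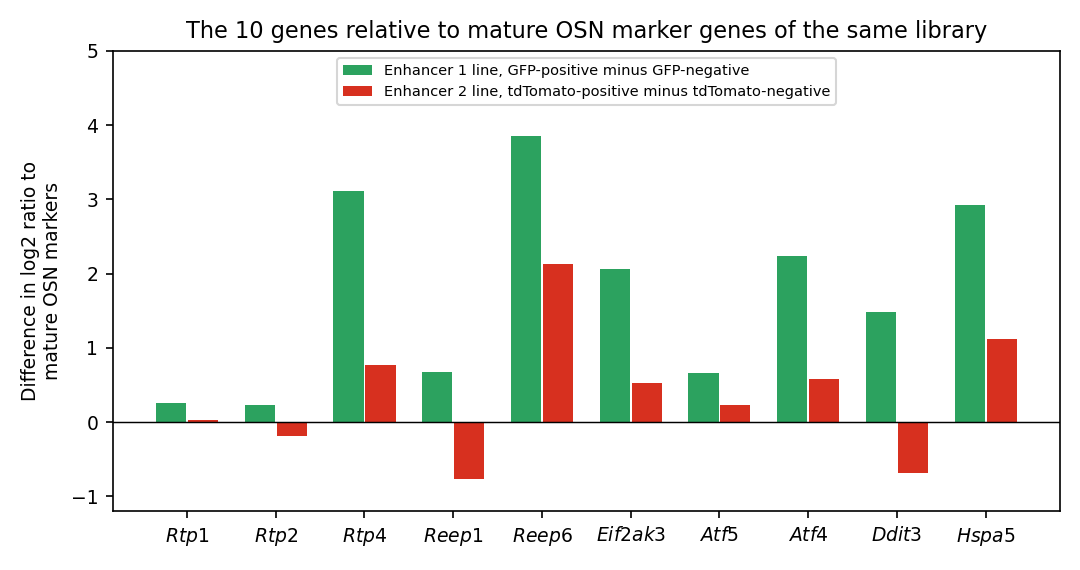
Difference between reporter-positive and reporter-negative cells in the log2 ratio of each of the 10 genes to the mean of 12 mature OSN markers in the same library, for each line, with 1 library per group. *Rtp1* and *Rtp2* lie nearest 0 in the GFP line, at 0.26 and 0.23, and *Reep6* lies highest in both lines, at 3.86 and 2.13.

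The 2 reporter-negative libraries, which come from different lines and sorts, were compared to see how far the 10 genes differ without a reporter. Of the 10, 1 gene (*Rtp4*) was at least 2-fold lower in tdTomato-negative than in GFP-negative cells, beside 12.4% of all genes tested, and none was at least 2-fold higher, beside 11.4%. *Ddit3* and *Reep1* were next, at 0.65 and 0.64 on the log2 scale, and *Rtp1*, *Atf5*, *Eif2ak3*, and *Reep6* differed by less than 0.1.

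Between the reporter-positive libraries, 4 of the 10 genes (*Rtp1*, *Rtp2*, *Reep1*, and *Atf5*) were at least 2-fold higher in tdTomato-positive than in GFP-positive cells, beside 34.9% of all genes tested, and 1 (*Rtp4*) was at least 2-fold lower, beside 11.7%. The log2 differences were 1.68 for *Rtp1*, 1.85 for *Rtp2*, 1.17 for *Reep1*, and 1.46 for *Atf5*, and they became -0.57, -0.40, -1.002, and -0.79 with the libraries scaled to the mature OSN markers. Those of *Hspa5* (-0.072) and *Atf4* (0.042) were near 0 as deposited, and became -2.33 and -2.22 in the same way. The line, the enhancer, the reporter, and the sort all differ between these libraries and cannot be told apart.

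The genes with the most similar profiles over the 4 libraries were sought among the 13010 genes that reached 10 TPM in 1 library or more, by the Euclidean distance of log2(TPM + 1) centered on each gene's own mean. For *Rtp1* they were *Tusc5* (distance 0.038), *Dscam* (0.070), and *Mreg* (0.076), and for *Atf5* they were *Uncx* (0.037), *Igsf3* (0.058), and *Cerk* (0.062). For *Reep6* they were *Nudcd1* (0.106), *Nedd4* (0.116), and *Ugdh* (0.120). For *Hspa5* they were *Mboat7* (0.031), *Spcs2* (0.038), and *Cdk5rap3* (0.049). Among the 10 genes, *Rtp1* and *Rtp2* were the closest pair, at a distance of 0.29, and *Rtp2* and *Rtp4* were the farthest apart, at 3.33. *Rtp2* ranked 100th and *Atf5* 160th among the genes closest to *Rtp1*. With 4 libraries that share their scaling, these distances only describe the profiles.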

How the data were processed

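RNA-seq of sorted MOE cells was analysed in 4 libraries, 1 for each group, and no p-values were calculated. The authors deposited 1 table with a TPM value per gene symbol (24421 genes), and each library sums to 1000000, so that the depth is unknown and no intervals or detection limits are given. The submitters' processing notes name Trimmomatic 0.36, Salmon 1.4.0, and mm10, without a role or order, whereas the methods of the study describe alignment with Hisat2 and quantification with Cufflinks. The gene annotation, any filter on genes, and the step that made the TPM values are not given in the sources used here. Kits for RNA extraction and library preparation also differ between the labels and the methods, which describe papain dissociation of the MOE, fluorescence-activated sorting, and Smart-seq2.

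TPM values were used as deposited. Log2 fold changes used a pseudocount of 1. A gene was tested when it had at least 1 TPM in either library, and called when it differed by at least 2-fold. The 10 genes, the 10 pathway lists (97 distinct genes), and the 10 marker lists were chosen with earlier results of these data known. The result of 1 marker list is not reported here. From each pathway list, the text names the 3 genes of highest mean TPM and the gene of largest absolute log2 fold change in each line that reached 10 TPM in 1 library or more. It also names some of the marker genes and the 3 genes closest to each of *Rtp1*, *Reep6*, *Atf5*, and *Hspa5*. Outside that rule it names the list members *Rtp3*, *Reep2*, *Eif2ak4*, *Kdm1a*, *Ppp1r15b*, *Trib3*, and *Cebpg*, and genes that overlap the 10. Alternatives were pseudocounts of 0.1 and 10, calls at 1.5-fold and 4-fold, no minimum and a minimum of 10 TPM, and 3 other scalings, by the median ratio, without the 24 genes among the 10 highest of any library, and to the mature OSN markers. Within-library ratios of gene pairs and the Ebf-type motif were added after the data were seen. Scripts were checked on simulated data. Positions are from GENCODE M21 and promoters from RefSeq (GRCm38.p6). Python 3.11.15, NumPy 2.4.6, pandas 2.3.3, and matplotlib 3.10.9 were used.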

Additional observations from a re-analysis of the deposited data

Results flagged for a closer look

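With 1 library per group, the following genes, among those named from the pathway lists by the stated rule, were singled out because the log2 fold change of TPM + 1 had opposite signs in the TAAR enhancer 1-GFP line and the TAAR enhancer 2-tdTomato line, however small the values. Over all 97 list genes, 31 had opposite signs, and only the named ones are given. The difference between the lines was not tested. The signs are those of TPM as deposited. Of these 11 genes, 5 kept opposite signs with median-ratio scaling, 7 without the highest genes, and 3 (*Chac1*, *Creb3l4*, and *Derl3*) with scaling to the mature OSN markers, a comparison added after the data were seen. *Rtp4* was at 0.13 and -0.26 and *Hspa5* at -0.067 and 0.091 in the 2 lines, respectively. *Hspa5* was positive in both lines with each of the other scalings (0.82 and 0.25 with median-ratio scaling), and *Rtp4* with scaling to the mature OSN markers (3.07 and 0.69). Among the other eIF2α kinases, *Eif2ak1* was at -0.50 and 0.026. Chaperones of the ER and cytosol were *Hsp90b1* (-0.30 and 0.24), *Hsp90aa1* (-0.11 and 1.35), and *Hsp90ab1* (-0.99 and 0.064). Genes of ER-associated degradation were *Vimp* (-0.61 and 0.29), *Os9* (-0.23 and 0.050), and *Derl3* (6.19 and -1.99). *Chac1* was at 0.51 and -3.24, with at most 10.2 TPM in any library. *Creb3l4* was at 4.57 and -1.88, and for *Creb3l4* and *Derl3*, which were listed at 0 in at least 1 library, the size depends on the pseudocount.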

How the results depend on the processing

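No paired analysis was possible because the labels give no replicate numbers, every group is a single library, and the lines differ in enhancer and reporter and so are not replicates of each other. With a single library per group, none could be left out. The scaling of the libraries affected the values most. In the GFP line, the median log2 fold change of the 10 genes was -1.21 as deposited, -0.35 with median-ratio scaling, and 1.71 when scaled to the mature OSN markers. In the tdTomato line, it was -0.65 and became 0.35 under the latter. Between the reporter-positive libraries, the median was 0.44, and became -0.31 and -1.78 under these scalings. With the OSN scaling, *Rtp1* (0.25), *Rtp2* (0.22), *Reep1* (0.56), *Atf5* (0.66), and *Ddit3* (1.44) were positive in the GFP line, and *Rtp1* (-0.57), *Rtp2* (-0.40), *Reep1* (-1.002), and *Atf5* (-0.79) were negative between the reporter-positive libraries. Of 260 values of single genes under alternatives, 210 moved by no more than 0.58 log2 units. The sign differed from that as deposited for 36 values, which are these 9 and 27 values of less than 2-fold as deposited, and the settings were the OSN scaling (23), median-ratio scaling (7), rescaling without the highest genes (5), and the list median (1). The ratios to OSN markers stayed within 0.58 with the list median, *Omp* alone, or a pseudocount of 10.

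With GFP, the 5 genes at least 2-fold lower became 4 with median-ratio scaling, 0 with the OSN scaling, 7 at 1.5-fold, and 4 at 4-fold. The 0 at least 2-fold higher became 2 with median-ratio scaling, 1 without the highest genes, 6 with the OSN scaling, and 1 at 1.5-fold. Of the 89 other pathway genes, 18 were lower, but 4 with median-ratio scaling, 0 with the OSN scaling, and 2 at 4-fold, and 16 were higher, but 33, 83, and 6, respectively. With tdTomato, the 3 genes that were lower became 0 with the OSN scaling, 5 at 1.5-fold, and 0 at 4-fold, and the 1 that was higher became 0 with a pseudocount of 10, 2 with the OSN scaling, and 0 at 4-fold. The 20 pathway genes that were lower became 9 with a pseudocount of 10, 9 with the OSN scaling, and 7 at 4-fold, and the 11 that were higher became 40 with the OSN scaling and 4 at 4-fold.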
